A study of Mus musculus with 12 samples.

Results

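The genes described here encode the proteasome, its assembly chaperones and its regulators. They were chosen by symbol: every gene row of the table whose name starts with Psma, Psmb, Psmc, Psmd, Psme, Psmf or Psmg followed by a number, leaving out pseudogenes and opposite-strand transcripts. This gave 49 of 26218 gene rows. One of them, Psmc3ip, encodes a meiotic recombination factor that only shares the start of its name, so 48 proteasome genes remain: 19 of the core particle, 9 of the base, 8 of the lid, 7 for assembly and 5 activators or inhibitors. Of these, 45 were expressed enough to be tested, and Psmb8, Psmb9 and Psmb11 were not.

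The proteasome is the main protease of the cytosol and nucleus. It is a barrel of stacked rings, with α subunits that guard the gate and β subunits that hold the proteolytic sites, capped by a regulatory particle. In that cap, the lid removes ubiquitin chains, and the base binds them, unfolds the substrate with a ring of ATPases and threads it into the barrel. Vertebrates also have alternative subunits: immune and thymic β forms used in antigen presentation, and Psma8, an α form of male germ cells that is known from meiosis. Primordial germ cells (PGCs), the founders of eggs and sperm, migrate through the early embryo and settle in the gonad, where males and females take separate paths.

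RNA was read at transcript 3′ ends in 12 mouse libraries, 2 in each of 6 groups. The 3 culture groups, d4c3, d4c5 and d4c7, are PGC-like cells on a C57BL/6 background with the Blimp1-mVenus and Stella-ECFP reporters (BVSC). They were made from embryonic stem cells through epiblast-like cells, sorted on day 4 of induction, expanded on m220 stromal feeder cells, and sorted again by Blimp1-mVenus fluorescence on culture day 3, 5 or 7. Each library used 10 ng of RNA. From embryos come PGCs of embryonic day 9.5 (E9.5), whose sexes were not separated, and germ cells of E12.5, in which males and females form separate groups. All 3 of these groups carry Stella-EGFP on a background labelled ICR:C57BL/6=1:1, were sorted by that reporter, and used 1 ng of RNA per library. Strain, reporter, sort and RNA input therefore cannot be told apart from culture against embryo. The labels do not say whether the 2 libraries of a group came from separate cultures or litters, so the p-values below speak only of the spread among these samples, which may be technical. In bulk RNA, fewer cells of a type and less RNA per cell cannot be told apart either.

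Levels are in RPM, read numbers scaled to the reads in genes of each library. Depth, estimated from the spacing of low values, was 2213555 to 5801877 reads per library, so 3 reads correspond to 0.517 to 1.36 RPM. The germ cell label was checked on 9 germ cell markers, which were all detected in every library, with a summed level of 2507 to 7599 RPM. Other cells were visible mainly at E9.5. A list of 10 blood and endothelial markers summed to 4116 to 4645 RPM there, mostly globins, and to 48.7 to 169 RPM elsewhere. Most of the sum elsewhere was Pecam1, at 48.3 to 151 RPM, and Cdh5 was at 0 in every library. A list of 9 fibroblast and stromal markers summed to 128 to 131 RPM at E9.5 and to 1.52 to 94.7 RPM elsewhere, highest in d4c5 replicate 1. The 8 macrophage and leukocyte markers summed to 4.48 to 6.85 RPM at E9.5, and no other library exceeded 2.19 RPM. One culture library, d4c7 replicate 2, was the deepest and lacked values for the ERCC spike-in RNAs. In the other culture libraries these RNAs summed to 59.6 to 72.7 RPM. At E9.5 they summed to 1372 and 629 RPM, and at E12.5 to 12107 to 16494 RPM. They were not used for scaling.

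The promoters of these genes were searched for short motifs, as a description with no test. RefSeq (GRCm38.p6) promoter entries, which run from 250 bases before to 50 bases after the transcript start, were matched for 41 of the 49 genes (44 promoters). Psma8, Psmb1, Psmb2, Psmb7, Psmc3, Psmd3, Psmd7 and Psmg2 had no entry in that table. The core of an ETS factor site, CCGGAA, was found in 22 of the 44 (50.0%), against 14.9% of all 32851 promoters of that length. The nuclear respiratory factor 1 motif, searched as GCGC, 1 free base and TGCGC, was in 15.91% of the 44 and 4.603% of all promoters. The interferon-stimulated response element, searched as GAAA, 2 free bases and GAAA, was in 11.36% and 3.443%. By contrast TGACNNNGC, the antioxidant response element read by the proteasome regulator Nfe2l1, was in 13.64% and 12.39%, and the CCAAT box in 34.09% and 37.41%. All motifs were searched on both strands, and matches of different motifs may overlap. A match is a description of letters, not of binding.

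The promoters of 5 genes are shown, picked among genes that hold a match and passed the test in at least 1 comparison that follows. They do not stand for called genes in general: Psmc4, Psma4, Psmd1 and Psmd8 were also called and hold neither of the 2 motifs marked. Capitals mark CCGGAA or its complement TTCCGG in the first 4 and the complement of the interferon-stimulated response element in the last. They lie at chr3:108256676-108256975 (Psma5, plus strand), chr11:106255935-106256234 (Psmc5, plus), chr16:20651402-20651701 (Psmd2, plus), chrX:140956662-140956961 (Psmd10, minus) and chr14:55578244-55578543 (Psme1, plus) of GRCm38.p6.
Psma5: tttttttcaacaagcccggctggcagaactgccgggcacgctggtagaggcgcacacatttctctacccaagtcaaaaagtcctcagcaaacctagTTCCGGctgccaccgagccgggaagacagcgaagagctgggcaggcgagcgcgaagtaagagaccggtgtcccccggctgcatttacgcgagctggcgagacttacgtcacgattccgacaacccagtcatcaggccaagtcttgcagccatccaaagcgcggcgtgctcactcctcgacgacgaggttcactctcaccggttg
Psmc5: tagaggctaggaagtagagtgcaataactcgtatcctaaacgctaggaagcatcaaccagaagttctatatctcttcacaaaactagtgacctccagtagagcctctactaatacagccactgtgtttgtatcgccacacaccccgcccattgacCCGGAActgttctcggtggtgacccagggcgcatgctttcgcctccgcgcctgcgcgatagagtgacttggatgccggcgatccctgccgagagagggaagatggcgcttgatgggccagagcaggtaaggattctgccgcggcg
Psmd2: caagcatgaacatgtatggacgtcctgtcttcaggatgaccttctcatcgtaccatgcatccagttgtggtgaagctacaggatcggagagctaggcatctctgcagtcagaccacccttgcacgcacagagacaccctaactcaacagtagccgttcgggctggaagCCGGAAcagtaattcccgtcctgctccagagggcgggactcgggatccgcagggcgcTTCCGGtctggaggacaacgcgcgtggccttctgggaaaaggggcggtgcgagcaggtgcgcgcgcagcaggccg
Psmd10: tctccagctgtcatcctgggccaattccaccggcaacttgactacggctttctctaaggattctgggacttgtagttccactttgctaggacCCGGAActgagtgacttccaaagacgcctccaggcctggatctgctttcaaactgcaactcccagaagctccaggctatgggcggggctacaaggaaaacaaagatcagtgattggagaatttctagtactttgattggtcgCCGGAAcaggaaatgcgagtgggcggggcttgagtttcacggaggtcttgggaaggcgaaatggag
Psme1: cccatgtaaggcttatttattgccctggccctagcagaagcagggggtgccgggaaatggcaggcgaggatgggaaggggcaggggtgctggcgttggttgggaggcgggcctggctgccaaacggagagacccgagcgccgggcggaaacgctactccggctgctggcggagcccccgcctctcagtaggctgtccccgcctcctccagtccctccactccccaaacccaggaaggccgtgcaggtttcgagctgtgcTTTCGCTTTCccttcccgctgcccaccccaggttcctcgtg

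The first question was how much the proteasome's transcript level moved between expansion in culture and development in the embryo. It moved little. The 31 genes of the constitutive 26S particle (14 core, 9 base and 8 lid genes) summed to between 9676 RPM in an E12.5 female library and 11204 RPM in an E12.5 male library, a ratio of 1.16. That is 0.965% to 1.12% of all gene reads. The 14 constitutive core genes alone summed to 6156 to 7029 RPM, and the 8 lid genes to 1472 to 1738 RPM.

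The parts of the particle did not keep fixed proportions. The 6 base ATPases summed to 934 ± 5.13 RPM in E12.5 female cells (SD, n = 2), to 1323 ± 69.3 in male cells and to 1360 ± 2.4 at E9.5. The 3 other base genes summed to 811 ± 31.5 RPM at E9.5, 1114 ± 69.7 in males and 1085 ± 23.0 in females. Psmd1 and Psmd2 carry that difference, and the third, Psmd4, stood at 252 ± 16.5, 245 ± 34.3 and 248 ± 8.51 RPM in the same groups. The 4 activators summed to 1014 ± 5.6 RPM at E9.5 and to 806 ± 18.0 and 831 ± 40.6 RPM in male and female cells. These sums are descriptions and were not tested.

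**Figure D1:**
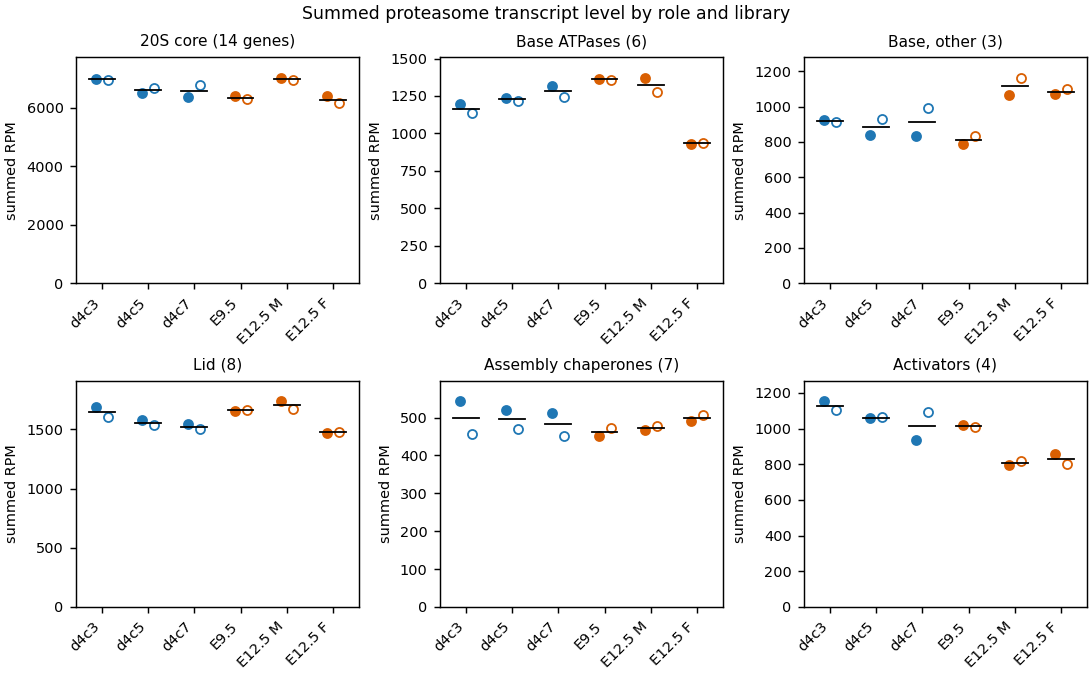
Summed RPM (y axis, from 0) of proteasome genes by role in each library (x axis, 6 groups). Filled points are replicate 1, open points replicate 2, blue culture, orange embryo, and lines the mean of 2. The base ATPases stand lowest in both E12.5 female libraries (931 and 938 RPM), and the activators lowest in the E12.5 libraries (794 to 860 RPM).

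Gene by gene, the ratio between the highest and lowest group mean had a median of 1.46 over the 45 tested genes, against 2.03 over all 10856 genes tested. It stayed under 1.5 for 23 of the 45 (51.1%; 19.1% of all genes) and reached 2 for 5 (11.1%; 51.3% of all genes). Those 5 were Psma8, Psmb10, Psmb2, Psmd13 and Psmg2. This ratio also grows with replicate spread, and the background was not matched for expression level. The root mean square replicate difference was smaller for the 45 genes than over all genes in each group. At E9.5, for example, it was 0.13 against 0.33 in log2. The part of expression level in the contrast with all genes was not tested. Some difference among the 6 groups was called by limma, at an adjusted p under 0.05, for 24 of the 45 genes, against 63.8% of all genes. By role these were 11 of 16 core genes, 6 of 9 base genes, 4 of 8 lid genes, 1 of 7 assembly genes and 2 of 5 activators and inhibitors.

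**Figure D2:**
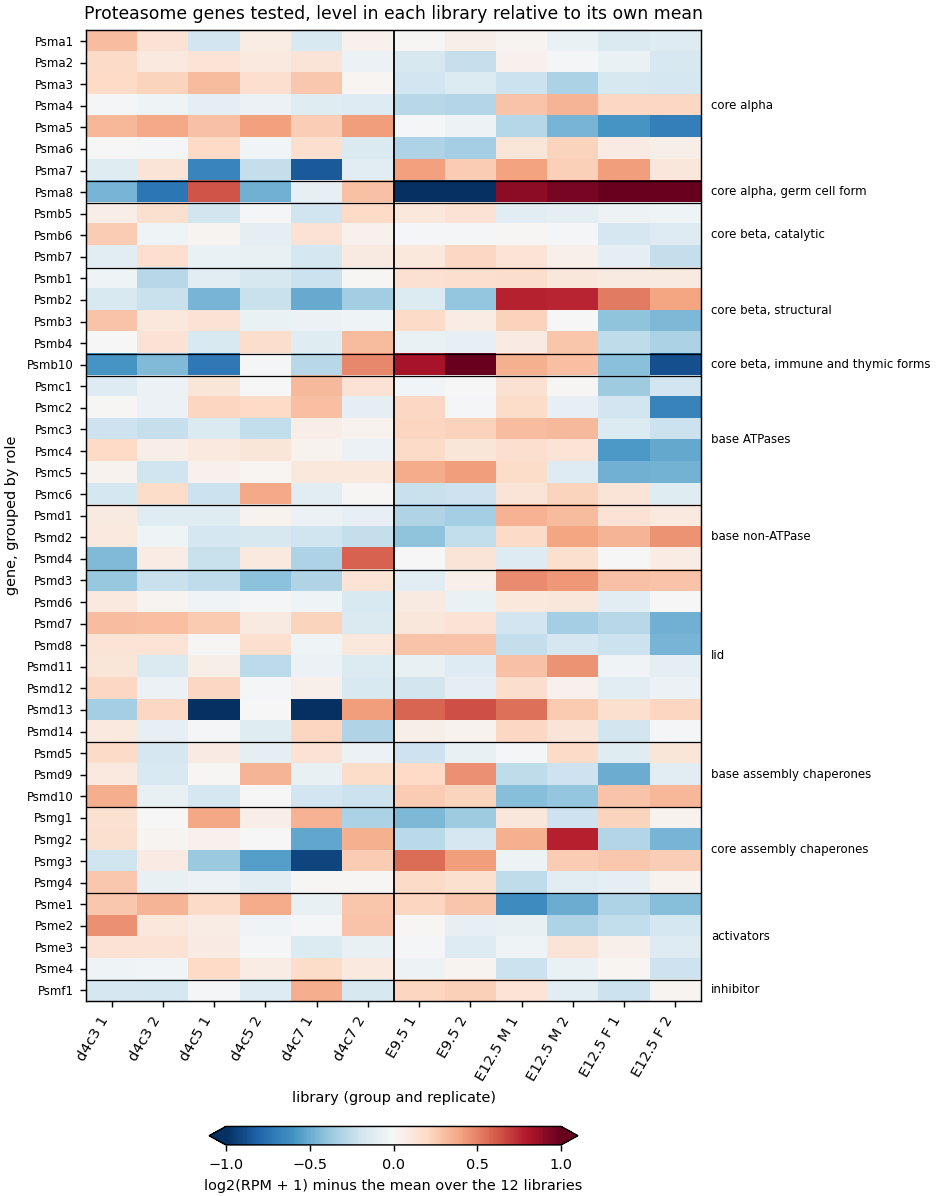
Level of the 45 tested proteasome genes (rows, grouped by role) in the 12 libraries (columns), as log2(RPM + 1) minus the gene's own mean, with colour saturating at 1 in either direction. Most rows are pale, Psma8 and Psmb10 are among the exceptions, and Psma7, Psmd13 and Psmg3 differ between the replicates of d4c5 or d4c7.

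For each of the 3 catalytic core genes the highest and lowest group means differed by a ratio of 1.17 to 1.25. Psmb5, Psmb6 and Psmb7 encode the chymotrypsin-like, caspase-like and trypsin-like sites. Psmb5 stood at 601 and 640 RPM in d4c3, 503 and 568 in d4c5, 498 and 659 in d4c7, 617 and 632 at E9.5, 530 and 539 in E12.5 males, and 554 and 554 in E12.5 females. Its culture and embryonic values overlap, and its highest and lowest group means differ by a ratio of 1.17. Both E9.5 libraries were above all 4 E12.5 libraries. The log2 changes from E9.5, −0.22 in males and −0.17 in females, did not pass in limma (adjusted p = 0.15 and 0.267). Each was called in 1 of 11 alternative fits. Psmb6 ranged from 358 to 478 RPM over all 12 libraries and Psmb7 from 333 to 454. Of the 3, Psmb7 was called once, with a log2 change of −0.32 ± 0.12 (SE) from E9.5 to E12.5 females, adjusted p = 0.043. Its last 500 bases overlap Nek6 on the other strand, the strand used in counting is not stated, and the call was lost without any 1 of the 4 libraries compared.

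Next, the step from E9.5 to E12.5 was examined in each sex. Limma called 14 of 45 proteasome genes in males (8 higher, 6 lower; of all genes 37.7% were called, 20.0% higher and 17.6% lower) and 19 of 45 in females (7 higher, 12 lower; of all genes 37.5%, 20.4% higher and 17.1% lower). The share of proteasome genes called, 31.1% and 42.2%, lies near the background, so these counts are not a result about the proteasome as a set. Both comparisons use the same 2 E9.5 libraries. The median log2 change of the 45 genes was −0.01 in males and −0.15 in females, against 0.05 and 0.04 over all genes. With an E9.5 library left out, 8 and 9 genes were called in males, and 8 without E12.5 male replicate 2, fits in which 23.1% to 24.4% of all genes were called.

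Among core genes, the structural β subunit Psmb2 showed one of the clearest rises. Psmb2 stood at 267 and 224 RPM at E9.5, 502 and 497 RPM in E12.5 males, and 421 and 387 RPM in females, while the 6 culture libraries lay between 206 and 264 RPM. All 4 E12.5 libraries were above the other 8. The log2 change was 1.03 ± 0.12 in males (adjusted p = 1.86e-05) and 0.72 ± 0.12 in females (adjusted p = 0.000356). The α subunits Psma4 and Psma6 also rose in both sexes. Psma4 went from 476 and 472 RPM to 704 and 730 in males and 665 and 665 in females. Psma6 went from 421 and 413 RPM to 568 and 610 in males and 553 and 543 in females. Their log2 changes were 0.60 ± 0.08 and 0.50 ± 0.11 in males and 0.49 ± 0.08 and 0.39 ± 0.11 in females, with adjusted p from 9.08e-05 to 0.0134. The female Psma6 call was lost without any 1 of the 4 libraries compared.

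The α subunit Psma5 fell. It stood at 384 and 373 RPM at E9.5, 316 and 279 RPM in E12.5 males and 257 and 240 RPM in females, and at 459 to 517 RPM in the 6 culture libraries. Its 3 embryonic groups do not overlap each other, and all culture values lie above them. Psma5 fell by 0.35 ± 0.10 on the log2 scale in males (adjusted p = 0.016) and by 0.61 ± 0.10 in females (adjusted p = 0.000458). The male call was lost without either E9.5 library or without male replicate 2. In females the structural β subunit Psmb3 also fell, from 281 and 260 RPM to 186 and 180 RPM, a log2 change of −0.56 ± 0.12 (adjusted p = 0.002). The remaining α and structural β genes, Psma1, Psma2, Psma3, Psma7, Psmb1 and Psmb4, did not pass the test in either sex.

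Psma8, the germ cell α form, is scarce but had the highest ratio between group means. It stood at 1.84 and 1.89 RPM at E9.5, which is about 5 and 8 reads, at 15.6 and 16.3 RPM in E12.5 males and at 20.6 and 17.1 RPM in females. In culture it was 5.48 and 4.44 RPM in d4c3, 12.9 and 5.42 in d4c5, and 7.46 and 10.0 in d4c7. Every E12.5 library was above every other library, and both E9.5 libraries were below all others. The log2 change from E9.5 was 2.57 ± 0.35 in males (adjusted p = 8.83e-05) and 2.79 ± 0.35 in females (adjusted p = 5.34e-05). Female and male cells differed by 0.22 ± 0.35, which did not pass the test (adjusted p = 0.751).

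The immune and thymic β forms were scarce. Psmb8 (β5i) and Psmb9 (β1i) had at most 2 and 3 reads in any library. Psmb11, the thymic form, stayed under the filter, at 0.687 to 2.41 RPM in culture, 2.65 and 1.93 at E9.5, 4.65 and 4.75 in E12.5 males and 2.72 and 4.04 in females. Both male libraries were above the other 10. In a fit without the filter Psmb11 was called once, lower in culture than in embryo by 0.83 ± 0.23 in log2 (adjusted p = 0.0229), with overlapping values. Psmb10 (β2i) passed the filter. It stood at 12.1 and 18.2 RPM at E9.5, 8.44 and 8.13 in E12.5 males, 4.55 and 3.02 in E12.5 females, and 3.51 to 9.31 RPM in culture. The 2 E9.5 libraries were the highest of all 12. Psmb10 fell by 1.75 ± 0.37 on the log2 scale from E9.5 to E12.5 females (adjusted p = 0.00219) and was −0.77 ± 0.37 in males (adjusted p = 0.115). It was 1.62 ± 0.37 lower in log2 in d4c3 than at E9.5 (adjusted p = 0.00565, or 0.08 without E9.5 replicate 2). The summed levels of the blood, stromal and macrophage markers given above are also highest at E9.5. The part of such cells in the Psmb10 level was not tested. An antisense gene, Gm16156, overlaps its 3′ end.

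Of the 6 ATPases of the base, 4 fell in females, where 17.1% of all genes were lower than at E9.5. Psmc5 (Rpt6) stood at 368 and 378 RPM at E9.5, 321 and 260 RPM in E12.5 males and 203 and 204 RPM in females. Psmc4 (Rpt3) stood at 364 and 346 RPM at E9.5, 357 and 351 in males and 213 and 223 in females. For both genes the female libraries were the lowest of all 12. Against E9.5 the female log2 changes were −0.87 ± 0.11 for Psmc5 (adjusted p = 6.93e-05), −0.70 ± 0.09 for Psmc4 (adjusted p = 8.36e-05), −0.40 ± 0.10 for Psmc3 (Rpt5; adjusted p = 0.00522) and −0.53 ± 0.20 for Psmc2 (Rpt1; adjusted p = 0.0466). The other two did not pass: Psmc1 was at −0.26 ± 0.11 (adjusted p = 0.0704), and Psmc6, at 35.1 and 35.5 RPM at E9.5 and 45.2 and 37.8 in females, at 0.22 ± 0.21 (adjusted p = 0.429). In males Psmc5 alone passed, at −0.37 ± 0.11 (adjusted p = 0.0214). The male Psmc5 call and the female Psmc2 call were each lost without either E9.5 library or without replicate 2 of the E12.5 group.

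The large scaffold subunits of the base rose instead. Psmd1 (Rpn2) stood at 295 and 286 RPM at E9.5, 461 and 453 in males and 401 and 387 in females. Psmd2 (Rpn1), which binds ubiquitin shuttles, stood at 254 and 284 RPM at E9.5, 384 and 442 in males and 425 and 460 in females. Neither gene's E12.5 values overlap its E9.5 values. The log2 changes were 0.65 ± 0.10 and 0.44 ± 0.10 for Psmd1 and 0.62 ± 0.11 and 0.72 ± 0.11 for Psmd2, males first, with adjusted p from 0.000161 to 0.0036. Psmd1 shares its 3′ end with the same-strand gene Gm21972, and reads of the pair cannot be told apart. The ubiquitin receptor Psmd4 (Rpn10) did not pass in either sex.

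In the lid, members moved both ways. Psmd8 (Rpn12) stood at 239 and 239 RPM at E9.5, 166 and 174 in males and 168 and 142 in females. Psmd7 (Rpn8), the partner of the deubiquitinase Psmd14, stood at 213 and 218 RPM at E9.5, 173 and 156 in males and 163 and 141 in females. Both fell in both sexes. The changes were −0.49 ± 0.11 and −0.63 ± 0.11 for Psmd8 and −0.39 ± 0.13 and −0.50 ± 0.13 for Psmd7, males first, with adjusted p from 0.000791 to 0.0296. Each Psmd7 call was lost when a library was left out, in males any of the 4. Psmd3 (Rpn3) and Psmd11 (Rpn6) rose in males by 0.48 ± 0.14 and 0.47 ± 0.14 (adjusted p = 0.0177 and 0.0146), calls that were likewise lost when a library was left out. Psmd6, Psmd12, Psmd13 and Psmd14 did not pass in either sex.

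Among the activators and inhibitors, Psme1 was the 1 gene called. It encodes PA28α, which with PA28β (Psme2) forms a cap that opens the core without ATP. Psme1 stood at 434 and 453 RPM at E9.5, 241 and 265 in E12.5 males and 302 and 278 in females, against 355 to 483 RPM in culture. Every E12.5 library was below the other 8. Psme1 fell by 0.81 ± 0.12 on the log2 scale in males (adjusted p = 0.000149) and by 0.61 ± 0.12 in females (adjusted p = 0.00125). The end of Psme1 overlaps Emc9 on the other strand. Psme2, at 206 to 257 RPM in the 6 embryonic libraries, did not pass in either sex, and neither did the nuclear activator Psme3, the large activator Psme4 (PA200) or the inhibitor Psmf1 (PI31). Psme1 and Psme2 are known as interferon-inducible.

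Of 7 assembly chaperones, 1 passed in males and 2 in females, where 37.7% and 37.5% of all genes were called. Psmd10 (gankyrin), a base chaperone, fell by 0.64 ± 0.18 in males (adjusted p = 0.0126). In females the base chaperone Psmd9 fell by 0.63 ± 0.22 and the core chaperone Psmg1 rose by 0.53 ± 0.19 (adjusted p = 0.0383 and 0.0399). All 3 calls were lost when a library was left out. Psmd5, Psmg2, Psmg3 and Psmg4 did not pass in either sex.

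**Figure D3:**
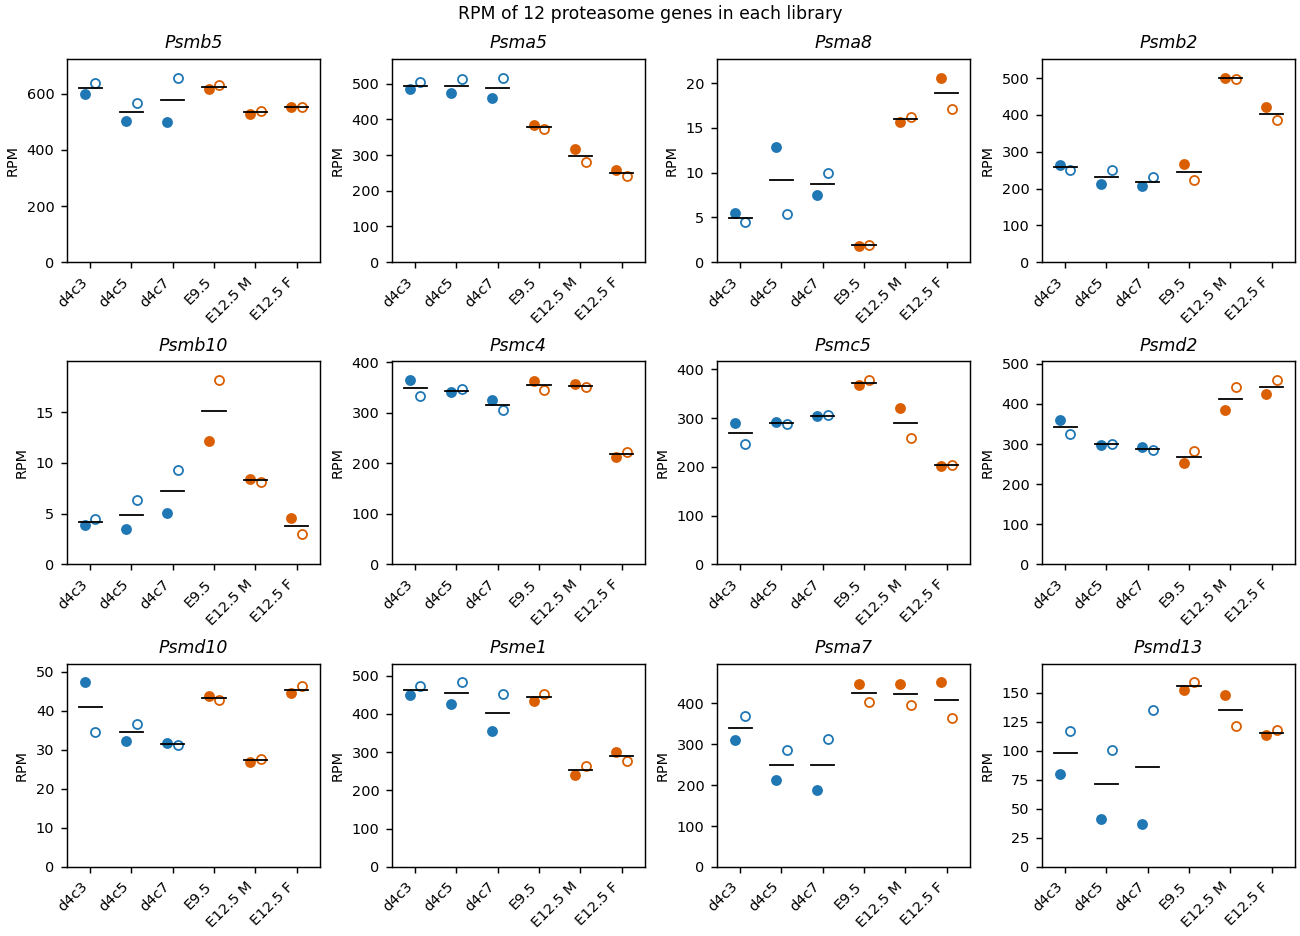
RPM (y axes, from 0) of 12 proteasome genes in each library (x axes, 6 groups); filled points are replicate 1, open points replicate 2, blue culture, orange embryo, lines the mean of 2. Psmb2 and Psma8 are highest in the E12.5 libraries, Psmc4 and Psmc5 lowest in E12.5 females, and Psmd13 spans 36.9 to 135 RPM in culture.

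The sexes were then compared directly at E12.5. Limma called 7 of 45 proteasome genes, 1 higher and 6 lower in females, where 11.9% of all genes were called (6.68% higher, 5.27% lower). Of the 6 lower genes, 4 are ATPases of the base: Psmc4 by −0.69 ± 0.09 (adjusted p = 0.000347), Psmc5 by −0.50 ± 0.11 (0.0108), Psmc3 by −0.49 ± 0.10 (0.00446) and Psmc1 by −0.35 ± 0.11 (0.047). Psmc3 stood at 286 and 291 RPM in males and 211 and 199 in females, and Psmc1 at 310 and 281 against 219 and 245. The last 2 ATPases were also lower in females without passing, Psmc2 at −0.48 ± 0.20 and Psmc6 at −0.17 ± 0.21. The other 2 lower genes are structural β subunits. Psmb3 stood at 290 and 246 RPM in males and 186 and 180 in females (−0.54 ± 0.12, adjusted p = 0.00791), and Psmb4 at 733 and 838 against 579 and 554 (−0.47 ± 0.14, adjusted p = 0.0423).

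Of these calls, Psmc4 held without each of the 4 libraries in turn, with adjusted p up to 0.00904. Psmc3 was lost only without female replicate 2 (adjusted p = 0.052), and its 3′ end overlaps Slc39a13 on the other strand. The other 5 calls were lost in at least 3 of these 4 fits, and the count fell from 7 to between 1 and 4, while the share of all genes called fell to between 4.96% and 5.22%. All 8 lid genes had negative values, from −0.44 to −0.11. Limma called 0 of them, and 1 had an unadjusted p under 0.05. The core chaperone Psmg2 had the second most negative value, −0.94 ± 0.30, with 18.1 and 24.5 RPM in males against 11.2 and 9.81 in females, and did not pass (adjusted p = 0.0532). The scaffold genes Psmd1 and Psmd2 differed by −0.21 ± 0.10 and 0.10 ± 0.11 and did not pass.

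Psmd10, the only X-linked gene of the set, was the 1 gene higher in females. It stood at 26.9 and 27.7 RPM in males and 44.6 and 46.3 in females, with 43.8 and 42.7 at E9.5. Among the embryonic groups males alone are low, and the E9.5 and female values lie close together. The difference was 0.71 ± 0.18 (adjusted p = 0.0201). Among the 409 X-linked genes tested, 28.6% were higher in females with a median difference of 0.43, against 5.88% of other genes with a median of −0.01. The Psmd10 call was lost without any 1 of the 4 libraries, with adjusted p up to 0.117.

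**Figure D4:**
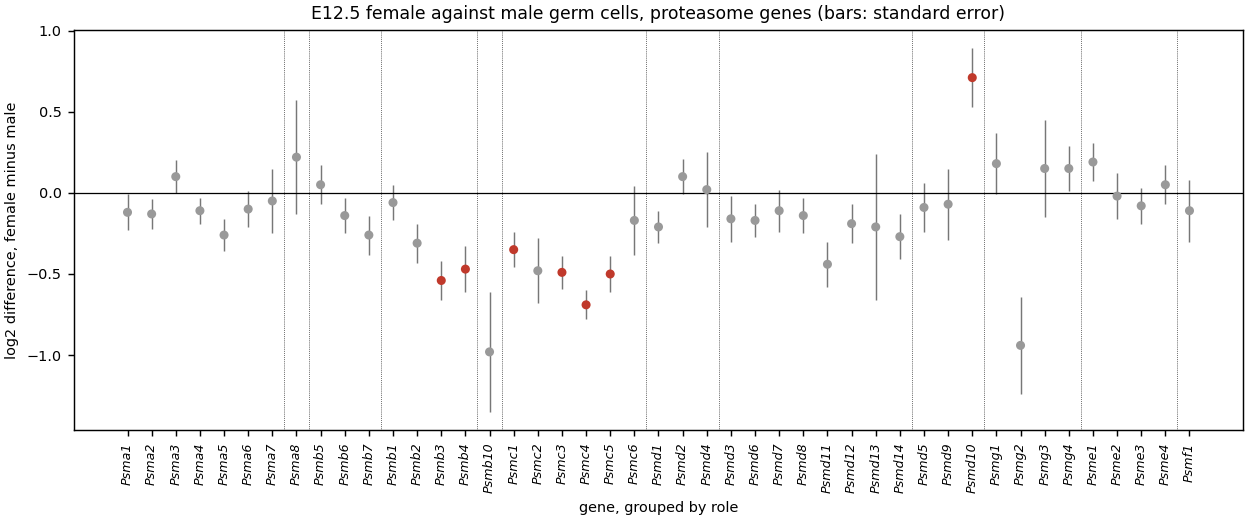
Log2 difference between E12.5 female and male germ cells (y axis, female minus male, on log2(RPM + 1)) for the 45 tested proteasome genes (x axis, grouped by role), with bars of 1 standard error. Red points passed the test: 4 of 6 base ATPases, Psmb3 and Psmb4 lie below 0, and Psmd10 lies above it.

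Expansion in culture was compared between days. No proteasome gene was called by limma between d4c3 and d4c5 (0 of 45, 2 at an unadjusted p under 0.05; 0.0829% of all genes called), between d4c3 and d4c7 (0 of 45, 6 unadjusted; 2.75% of all genes) or between d4c5 and d4c7 (0 of 45, 1 unadjusted; 0.0184% of all genes). The lowest adjusted p was 0.138, for the ATPase Psmc1 between d4c7 and d4c3. Psmc1 stood at 255 and 268 RPM in d4c3, 304 and 281 in d4c5, and 349 and 308 in d4c7. The median absolute log2 change of the 45 genes over the 3 steps was 0.10 to 0.15, against 0.16 to 0.23 over all genes, which were not matched for expression level.

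Several genes differed between culture replicates, some of them by more than between days. Psmd13 (Rpn9), a lid subunit, stood at 79.8 and 117 RPM in d4c3, 41.3 and 101 in d4c5, and 36.9 and 135 in d4c7. Replicate 2 was the higher at each day, by a ratio of up to 3.66. The α subunit Psma7 stood at 311 and 370 RPM in d4c3, 213 and 286 in d4c5, and 189 and 312 in d4c7. Both d4c5 libraries were below both d4c3 libraries for Psma7, while its replicates differed most in d4c7. Psmd4 stood at 194 and 364 RPM in d4c7, and the core chaperone Psmg3 at 14.1 and 33.1. The 3′ end of Psmg3 overlaps the same-strand gene Gm26938, and reads of the pair cannot be told apart. Over the 45 genes the root mean square difference between replicates was 0.22, 0.34 and 0.48 on the log2 scale in d4c3, d4c5 and d4c7, against 0.13 to 0.18 in the embryonic groups. Over all genes it was 0.42 to 0.56 in culture and 0.33 to 0.40 in embryos. Without d4c7 replicate 2, the deepest library, 4 genes were called between d4c7 and d4c3: Psmd13 at −1.37, Psma7 at −0.84, Psmg3 at −0.86 and Psmc1 at 0.41. That is 8.89% of the 45, against 7.24% of all genes in the same fit. Without d4c7 replicate 1 the 1 gene called was Psmd4, at 0.77, with 2.42% of all genes called.

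How the earliest culture group relates to the E9.5 cells was the next comparison. Limma called 11 of 45 proteasome genes between d4c3 and E9.5 (23.7% of all genes, 13.4% higher and 10.3% lower): 7 higher and 4 lower in d4c3. With each library's median log ratio set to 0, 23.5% of all genes were called. The split of proteasome genes was then 1 higher and 4 lower. Without the mean-variance trend of the model it was 1 higher and 2 lower, with 19.7% of all genes called. Most of the higher calls thus depended on the setting, and the cause was not tested. The 7 higher genes were Psma2, Psma3, Psma4, Psma5, Psma8, Psmd1 and Psmd2, with log2 differences of 0.25 to 0.39 except for Psma8 at 1.05 ± 0.35 (adjusted p = 0.0447). The 4 lower genes were Psmb10, Psmc5 (−0.48 ± 0.11), Psmc3 (−0.44 ± 0.10) and Psmb1 (−0.32 ± 0.11). Psmc3 alone kept its call without each of the 4 libraries in turn, with adjusted p up to 0.0368, and 1 to 6 genes were called in those fits, with 12.2% to 15.5% of all genes.

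Across all culture and all embryonic groups, limma called 17 of 45 proteasome genes, 8 higher and 9 lower in culture, where 54.5% of all genes were called (27.7% higher, 26.8% lower). Complete separation was rarer: the culture and embryonic ranges did not overlap for 3 of the 45, Psma3, Psma5 and Psmb1, and for 15.5% of all genes. Psma5 was higher in culture by 0.70 ± 0.06 (adjusted p = 5.18e-07). Psma3, at 726 to 892 RPM in culture and 575 to 652 RPM in embryos, was higher by 0.40 ± 0.06 (adjusted p = 5.72e-05). Psmb1, at 327 to 400 RPM in culture and 422 to 449 RPM in embryos, was lower by 0.26 ± 0.06 in log2 (adjusted p = 0.00239). The end of Psma3 overlaps the other-strand transcript 3110056K07Rik.

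Of the remaining calls, Psma2, Psmc4, Psmd7, Psmd8, Psme1 and Psme2 were higher in culture, by 0.16 to 0.46. Lower were Psma4, Psma7, Psmb2, Psmc3, Psmd2, Psmd3, Psmd13 and Psmg3, with values from −0.81 to −0.16. The Psmc4 and Psmd8 calls were lost in 6 and 11 of 18 alternative fits. Some of these genes also differ within the embryo. Psmb2, for example, was 206 to 264 RPM in culture and 224 to 267 RPM at E9.5, and its −0.64 ± 0.07 comes with the high E12.5 levels. Against E9.5 alone some signs turn. Every culture library was above both E9.5 libraries for Psma4 (528 to 571 against 476 and 472 RPM). The same held for Psmd2 (284.3 to 358.9 against 253.7 and 283.9 RPM). For Psmd8 every culture library was below them (190 to 220 against 239 and 239 RPM). The Psmd13 value, −0.81 ± 0.26 (adjusted p = 0.0176), was lost without d4c3 replicate 1, d4c5 replicate 1, E9.5 replicate 2 or E12.5 male replicate 1.

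Psmc3ip, the gene matched by name only, fell in both sexes. It stood at 45.8 to 54.1 RPM in culture, 52.9 and 52.1 at E9.5, 38.5 and 30.4 in E12.5 males, and 34.0 and 28.2 in females. It fell by 0.60 ± 0.17 in males and 0.75 ± 0.17 in females from E9.5 (adjusted p = 0.0128 and 0.00377), and the sexes did not differ beyond the test's threshold (adjusted p = 0.665). The other-strand gene Mlx overlaps its end.

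Proteasome genes whose symbols lack the Psm stem were read alongside. Of 9 tested, 1 rose and 3 fell from E9.5 to E12.5 in males, and 2 rose and 3 fell in females. Of all genes, 37.7% were called in males and 37.5% in females. Shfm1, the small lid subunit Sem1, stood at 624 and 587 RPM at E9.5, 337 and 282 in males and 421 and 378 in females, a log2 change of −0.97 ± 0.10 and −0.60 ± 0.10 (adjusted p = 1.14e-05 and 0.000566). Its male change is more negative than that of any of the 8 lid genes above. Akirin2, which brings proteasomes into the nucleus, fell by 0.54 ± 0.18 and 0.88 ± 0.18, and Pomp, the core maturation chaperone, by 0.41 ± 0.11 and 0.53 ± 0.11, with adjusted p from 0.00196 to 0.0308. Txnl1 rose by 0.49 ± 0.14 and 0.41 ± 0.14 (adjusted p = 0.0134 and 0.0329). AI314180, the proteasome adaptor Ecpas, rose in females by 0.55 ± 0.17 (adjusted p = 0.0227). In culture against embryo, where 54.5% of all genes were called, Pomp, Akirin2 and Shfm1 were higher. AI314180 was lower, by 0.87 ± 0.10 in log2. Shfm1 was 413 to 551 RPM in culture, below both E9.5 libraries, so its higher value comes with the low E12.5 levels.

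Of 6 tested regulators of proteasome genes, 2 rose from E9.5 in males and 3 in females. In culture, 2 were higher and 2 lower than in embryo. Of all genes, 20.0% were higher in males than at E9.5 and 20.4% in females, and 54.5% were called between culture and embryo. Nfe2l1, which drives proteasome genes when proteolysis falls short, stood at 78.7 and 80.4 RPM at E9.5, 91.3 and 83.1 in males and 118 and 121 in females, and at 49.7 to 69.6 RPM in culture. It was 0.45 ± 0.14 higher in females than in males (adjusted p = 0.0464) and 0.66 ± 0.08 lower in log2 in culture than in embryos (adjusted p = 1.04e-05). Nfe2l2 was highest in culture, at 62.1 to 128 RPM against 29.8 to 61.4 RPM in embryos. The calls on Ddi2, the protease that activates Nfe2l1, rest on values listed far below 1 read in the culture and E9.5 libraries, so no fold is given. The counts of regulators above include these Ddi2 calls, as a rise in each sex and as lower in culture.

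Ubiquitin genes, which supply and carry the substrates' tag, were read as well. Of 14 tested, 5 rose and 2 fell in males, and 5 rose and 3 fell in females, from E9.5. Of all genes, 37.7% were called in males and 37.5% in females. The ubiquitin-activating enzyme Uba1, an X-linked gene, rose by 0.58 ± 0.13 and 1.02 ± 0.13, and Nploc4, a cofactor of the segregase Vcp, by 0.89 ± 0.15 and 0.96 ± 0.15, with adjusted p from 4.03e-05 to 0.00258. The shuttle gene Ubqln2 fell by 1.25 ± 0.31 and 1.46 ± 0.31 (adjusted p = 0.00575 and 0.00215). In the antigen processing list 5 of 11 genes were tested. Tapbp, H2-K1, Irf1 and Erap1 were higher in culture than in embryo, by 0.29 to 1.07, where 27.7% of all genes were higher. B2m, the other tested gene, was not called, at 2.66 to 11.0 RPM in culture and 11.8 and 17.9 RPM at E9.5. For Tapbp and Irf1 every culture library was above both E9.5 libraries. Culture values overlapped E9.5 for H2-K1 (20.2 to 26.7 against 17.5 and 22.2 RPM). They also did for Erap1 (3.4 to 8.6 against 6.25 and 4.95 RPM). The higher values of these genes come with low E12.5 levels. Tap1 and Tap2 stayed at or under 2.75 RPM in all 12 libraries.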

How the data were processed

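Total RNA of sorted cells was extracted, its cDNA was amplified and 3′-end libraries were sequenced on a SOLiD instrument, per the labels' protocols. The authors deposited 1 table of RPM values, read numbers scaled to the reads assigned to genes, with 26218 gene rows and 92 ERCC rows. Tools listed in the submitters' processing notes, without roles, are Cufflinks 2.2.0, TopHat 1.4.1 and cutadapt 1.3; the build is mm10. Of the values up to 20 reads, 81.8% to 87.4% per library were whole reads within 0.1 read, so counts were not recovered and no count test was run. Floors of 3 reads cover counting error only, since amplified reads are not independent molecules.

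Values were tested as log2(RPM + 1), on which low genes' changes are understated, for 10856 genes with at least 5 RPM in at least 2 libraries. A limma 3.58.1 model in R 4.3.3 took all 12 libraries with a mean per group (6 residual and 8.02 prior degrees of freedom, mean-variance trend). P-values of 8 contrasts and of any difference received a Benjamini-Hochberg adjustment over all tested genes, and calls have an adjusted p under 0.05. Errors of log2 values are standard errors. Culture minus embryo compares the mean of 3 groups with the mean of 3. Alternatives were other pseudocounts, no filter, median log ratios set to 0, no trend, only the libraries compared, a replicate block and each library left out.

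The genes, roles, lists and motifs were chosen with earlier results of these data known. The rule for naming took the 10 called genes with the largest change per comparison, 15 genes always and 3 per list; genes named beyond it were chosen after their values were seen. A listed gene is not reported here. All 49 symbols matched RefSeq. Overlaps are those of the last 500 bases in GENCODE vM21. Genes with annotated pseudogene copies, Psma5, Psmb5, Psmb6 and Psmb7 among them, may share reads with them. The counting strand is not given in the sources used here.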

Additional observations from a re-analysis of the deposited data

Results flagged for a closer look

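The change from E9.5 to E12.5 differed between male and female germ cells for 7 proteasome genes, by the direct test of female against male cells, which equals the difference of the 2 changes because both use the same E9.5 libraries. Psmc4 differed by −0.69 (log2 change 0.00 in males, −0.70 in females), Psmb3 by −0.54 (−0.02 and −0.56), Psmc5 by −0.50 (−0.37 and −0.87), and Psmc3 by −0.49 (0.09 and −0.40). Psmb4 differed by −0.47 (0.25 and −0.21) and Psmc1 by −0.35 (0.09 and −0.26). Psmd10, on the X chromosome, differed the other way, by 0.71 (−0.64 in males, 0.07 in females). These 7 are 15.6% of the 45 genes tested, against 11.9% of all genes, and between 1 and 4 were called with any 1 of the 4 libraries left out. The adjusted p in limma ran from 0.000347 for Psmc4 to 0.047 for Psmc1.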

How the results depend on the processing

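The counts of proteasome genes called depend most on single libraries, since each group has 2. A library left out leaves a group with 1 sample, which the model assumes to vary like the others. Over these fits the counts ran from 0 to 4 between d4c7 and d4c3 (0 with all libraries), from 8 to 11 from E9.5 to E12.5 males (14; the share of all genes called also fell, from 37.7% to between 23.1% and 26.2%), from 1 to 4 between the sexes (7), and from 1 to 6 between d4c3 and E9.5 (11). Fitting only the libraries compared gave 24 calls from E9.5 to E12.5 males (53.3% of the 45, against 49.2% of all genes). Without the mean-variance trend the count was 3 between the sexes (9.29% of all genes called) and 3 between d4c3 and E9.5 (19.7%). With the median log ratio set to 0 the count was 5 between d4c3 and E9.5 (1 higher, 4 lower), with 23.5% of all genes called. In that setting the split from E9.5 was 8 higher and 8 lower in males (37.3% of all genes called). In females it was 5 higher and 12 lower (37.4%). The cause was not tested. With the replicate number as a block, 1 gene was called between d4c7 and d4c3, Psma7 at −0.48 (adjusted p = 0.0143), and the counts from E9.5 were 21 in males and 20 in females, 10 between the sexes, 15 between d4c3 and E9.5, and 19 between culture and embryo; the shares of all genes called rose too, to 43.2%, 43%, 16.6%, 29.1% and 58.8% in that order. Same-numbered libraries deviated together with correlations of 0.12 to 0.46 among culture groups and of −0.04 to 0.03 otherwise, with 2 numbers, and the labels do not say what a number marks, so no pairing was used. Of 68 calls on single genes of this set, 35 kept their call under every alternative run and 33 lost it under at least 1, and no sign reversed in 867 alternative values. Fits of only the libraries compared were not run for culture against embryo or for any difference among 6 groups. Depth limits Psmb8 and Psmb9, for which no change was detectable.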
